A study of Mus musculus with 2 samples.

Results

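Follicular B cells were examined in single-cell RNA sequencing of spleens infected with lymphocytic choriomeningitis virus clone 13 (LCMV-cl13), a strain that persists in C57BL/6 mice. They were chosen from the counts. A member barcode had at least 1 UMI (unique molecular identifier, 1 captured RNA molecule) of Cd79a and at least 2 of Ighd, fewer than 2 UMIs of Cr2, Dtx1 and Il9r together, fewer than 3 of Ifit1, Ifit2 and Ifit3 together, fewer than 5 of Mzb1, and 0 of Rgs13, Cd3e and Lyz2. These terms kept 3365 of 23397 barcodes of the run used here, among 43965 barcodes of the whole series. The levels of these 12 genes chose the members, so they are given below as a description.

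The comparison was between 2 genotypes at 8 days post infection (dpi). PEP-WT mice were C57BL/6 mice with the wild type Ptpn22 gene, which encodes the tyrosine phosphatase PEP. PEP-619WW mice were C57BL/6 mice in which CRISPR/Cas9 editing changed an arginine of PEP to tryptophan, the mouse counterpart of a human allele tied to autoimmunity. Both groups were infected, and spleens of 4 to 5 age-matched and sex-matched mice were pooled per genotype and sorted for live CD45+ cells, so each genotype was 1 library. With 1 library per genotype there is no replicate check. The intervals given are 95% intervals for counting error only, and no p-value was computed. Mouse, sort and library cannot be told apart from genotype.

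Follicular B cells are the main resting B cells of the spleen and lymph nodes. They recirculate through the follicles, carry IgM and IgD, and wait there for antigen and T cell help. Marginal zone B cells sit at the edge of the follicle, carry more of the complement receptor encoded by Cr2, and answer blood-borne antigen quickly. PEP acts with the kinase Csk to dampen antigen receptor signaling in lymphocytes, and type I interferon, released in early LCMV infection, induces a common antiviral gene set in most cells, B cells included.

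The run used here held 77916082 UMIs in 14821 PEP-WT barcodes and 56745578 UMIs in 8576 PEP-619WW barcodes, and no barcode had fewer than 500 UMIs. The 2 libraries shared 39 barcode sequences, of which 1 was a member in both. The barcode numbers in the study's methods are those of the other deposited run, not of the run used here. The sample records name liver, the Jurkat cell line and CD45+ cells sorted from tumor infiltrates, while the protocol text and the study's methods describe splenocytes. Beyond hepatocyte genes and Ptprc these labels were not tested. Of the hepatocyte genes, Alb and Ttr had 0 UMIs in both libraries, Apoa1 had 1 UMI in each, and Apoa2 reached 3.64 and 5.83 CPM (UMIs of a gene scaled to the same total in each library). Ptprc, which encodes CD45, was found in 73.0% of the barcodes in PEP-WT, and in 70.9% in PEP-619WW. A 3' tag does not read the edited codon, so the genotype labels were not checked by sequence.

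Follicular B cells made up 2291 of 14821 PEP-WT barcodes, 15.5% (exact binomial interval 14.88 to 16.05). In PEP-619WW they made up 1074 of 8576 barcodes, 12.5% (11.8 to 13.2). The share was lower in PEP-619WW by 2.93 points, with a counting interval of the difference from -3.84 to -2.02. Members were deeper in PEP-619WW, with a median of 2972 UMIs and 1234 genes against 2250 UMIs and 985 genes in PEP-WT. With each barcode thinned to 1000 UMIs before the gate, 9.52% passed in PEP-WT and 7.38% in PEP-619WW, a difference of -2.15 points (-2.91 to -1.36). The thinning left out 978 and 1173 shallower barcodes. These are shares of sorted barcodes, and more cells of another type would lower them as well as fewer follicular B cells.

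The other deposited run, in which PEP-WT held no member, turned the difference to 2.39 points (2.12 to 2.70). Without members holding a UMI of Jchain, Cd3d, Trac, S100a8, Csf1r or C1qa it was -4.48 points. The size also depended on the IgD term. A threshold of 1 Ighd UMI gave -4.31 points, and a threshold of 3 gave -1.14 points. Just outside the gate, 887 PEP-WT barcodes met every other term with 1 Ighd UMI, and just inside it 779 had 2. Summed over barcodes, Ebf1 stood at 1400 CPM just outside and 1385 CPM just inside, and Fcmr at 495 and 512 CPM. In PEP-619WW the 395 barcodes just outside had 1349 CPM of Ebf1 and the 297 just inside had 1342 CPM. The plasma cell gene Jchain was higher outside, at 254 against 166 CPM in PEP-619WW and 106 against 78.0 CPM in PEP-WT. Barcodes on either side of the Ighd threshold were thus close in these B cell genes, and many B cells were left among the other barcodes. A Lyz2 UMI alone kept out 371 PEP-WT barcodes, beside 2291 members, and 259 PEP-619WW barcodes, beside 1074 members. Relative to the members that was more in PEP-619WW. A Cd3e UMI alone kept out 68 and 36, in the same order. Without the Lyz2 and Cd3e terms the difference in share was -2.44 points.

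The term on Cr2, Dtx1 and Il9r alone kept out 520 PEP-WT and 114 PEP-619WW barcodes, which are described below as marginal zone-gated B cells. Mzb1 alone kept out 167 and 139 barcodes, in the same order, beside 2291 and 1074 members, which was relatively more in PEP-619WW. Rgs13, a germinal center gene, alone kept out 3 and 2. The Ifit term alone kept out 158 barcodes in PEP-WT but 46 in PEP-619WW. Of those passing every other term these were 6.45% (5.51 to 7.50) and 4.11% (3.02 to 5.44), a difference of -2.34 points (-3.80 to -0.74). The Ifit proteins are induced by interferon, so the gate left out the barcodes with the strongest Ifit signal, and more of them in PEP-WT.

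Genes the gate did not use set the members apart from the other barcodes as B cells. Summed counts of the members were compared with those of the other barcodes within each library, which is a description because the gate chose the cells. Of 11399 genes with at least 200 UMIs, 685 (6.01%) were at least 2-fold higher in the members of both libraries, and 1932 (16.9%) were at least 2-fold lower. All 14 measured follicular B cell markers outside the gate were among the higher genes. Their median log2 ratio was 1.88 in PEP-WT and 2.38 in PEP-619WW, against -0.04 and 0.04 over all genes tested. Against the marginal zone-gated B cells 1 of these 14 markers was at least 1.5-fold higher in both libraries, beside 1.14% of all genes. The medians were 0.11 and 0.013, so the list does not set the members apart from those cells.

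The gene with the highest lower bound was Fcer2a, which encodes CD23, the low-affinity IgE receptor of follicular B cells. Its level was 110 CPM in members against 17.9 CPM in other barcodes of PEP-WT, and 60.7 against 6.35 CPM in PEP-619WW. Marginal zone-gated B cells held 111 and 69.0 CPM of it, and both intervals of that comparison span 0. Fcmr, the Fc receptor for IgM, stood at 548 against 101 CPM in PEP-WT and at 466 against 63.0 CPM in PEP-619WW. Ebf1, a transcription factor that sets B cell identity, stood at 1356 against 295 CPM and at 1348 against 190 CPM. Zfp318, needed for the IgD transcript to be made, was 261 against 45.5 CPM in PEP-WT and 362 against 44.7 CPM in PEP-619WW. Cd55, a brake on complement, followed with log2 ratios of 2.49 and 2.88. Each of these genes was higher in the members of both libraries, by more than its counting interval.

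H2-Ob, a chain of the H2-O regulator of MHC class II loading, had log2 ratios of 2.24 and 2.73, and Bank1, a B cell receptor adaptor, 2.12 and 2.64. The inhibitory receptor gene Btla had 2.16 and 2.67. Pax5, which keeps B cells committed, had 1.97 and 2.67. The remaining high genes included Cacna1i, a calcium channel subunit, Scd1, a fatty acid desaturase, Ffar1, a fatty acid receptor, B3gnt5 and Chst3, which build glycans, and Snx29 and Sbk1, with log2 ratios from 2.16 to 2.79 over both libraries. Of the B cell transcription factor list, 13 of 24 genes were at least 2-fold higher in both libraries and 0 were lower. In the list for MHC class II presentation 11 of 16 were higher, and in the list of complement, Fc and lectin receptors 9 of 16, against 6.01% of all genes.

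Genes of most other lineages were low. All 12 neutrophil, 13 T cell, 13 monocyte or macrophage and 8 NK cell markers tested were at least 2-fold lower in the members of both libraries, beside 16.9% of all genes. Also lower were 6 of 8 dendritic cell and 3 of 4 platelet markers. Of 9 erythroid markers only 1 was, with median log2 ratios of -0.83 in PEP-WT and -0.86 in PEP-619WW. S100a8, an abundant neutrophil gene, stood at 46.5 CPM in members and 2389 CPM in other barcodes of PEP-WT, and at 114 and 4213 CPM in PEP-619WW. Jchain, made by antibody-secreting cells, stood at 88.0 against 2867 CPM and at 112 against 3937 CPM. Ngp, a neutrophil granule gene, had the most negative bounds, with log2 ratios of -6.60 and -5.76. The other low genes by the same rule were neutrophil or monocyte genes (S100a9, Camp, Retnlg, Lcn2, Slpi, Chil3, Fn1, G0s2 and Ltf) and antibody genes (Ighg2b, Ighg2c and Iglv1). All 22 genes of the mitosis list were at least 2-fold lower than in the other barcodes, with a median log2 ratio of -2.92 and -2.93, and 14 of 20 genes of the S phase list, with medians of -1.46 and -1.25, beside the same 16.9%. After thinning to 1000 UMIs, 69.1% and 70.1% of members had no UMI of the mitosis list. Of 5 transitional B cell markers tested 2 were at least 2-fold higher in the members of both libraries, beside 6.01% of all genes, and 0 were lower, with medians of 0.90 and 1.10. Vpreb3, a gene of early B cells, stood at 205 and 249 CPM against 80.5 and 92.1 CPM in other barcodes, and Cd24a at 123 and 102 CPM against 190 and 205 CPM. Cd93 stood at 7.18 and 12.3 CPM, and Rag1, Rag2, Igll1 and Dntt had 0 UMIs in the members of both libraries.

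**Figure D1:**
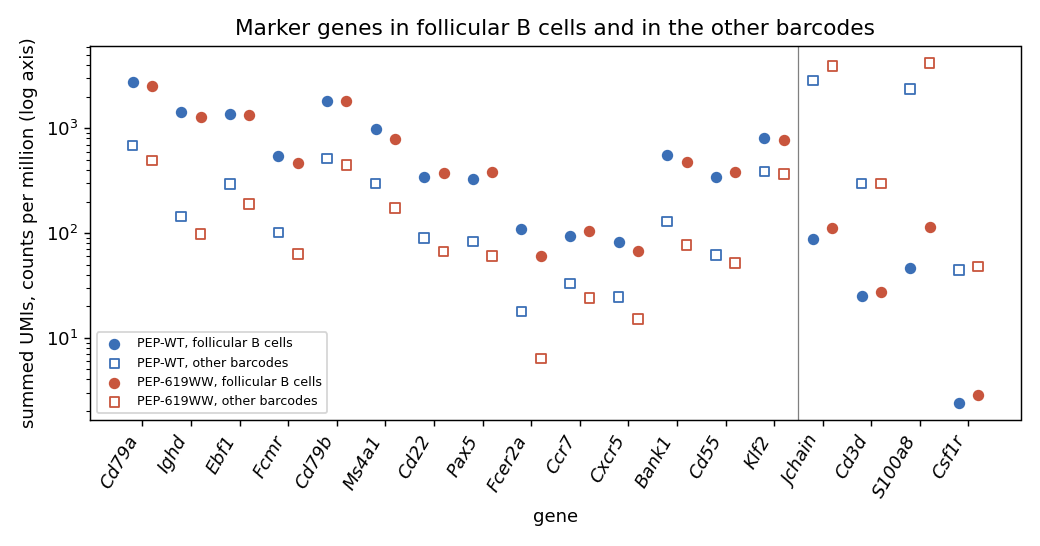
Summed UMIs in CPM (vertical log axis) of 14 follicular B cell markers and, right of the line, 4 genes of other lineages. Filled circles are follicular B cells and open squares the other barcodes, in PEP-WT (blue) and PEP-619WW (red). Each follicular marker sits higher in the members of both libraries, and Jchain, Cd3d, S100a8 and Csf1r sit lower. Cd79a and Ighd were used by the gate, and values of different genes are not comparable per transcript length.

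Light chain RNA was mixed in most members. Igkc encodes the kappa constant region, and Iglc1, Iglc2 and Iglc3 the lambda ones. Among members with at least 10 light chain UMIs, a barcode was called kappa or lambda when 80% of those UMIs came from 1 type. In PEP-WT 885 barcodes were kappa, 99 lambda and 1262 neither, and in PEP-619WW 412 were kappa, 21 lambda and 633 neither. Lambda was 10.1% of called barcodes in PEP-WT (8.25 to 12.1) and 4.85% in PEP-619WW (3.03 to 7.32), a difference of -5.21 points (-7.84 to -2.21). It was -2.57 points (-6.46 to 2.27) without members holding a UMI of Jchain, Cd3d, Trac, S100a8, Csf1r or C1qa, and -3.995 points (-8.19 to 1.24) after thinning to 1000 UMIs, and both of these intervals span 0. Only 43.8% and 40.6% of the barcodes were called, so these shares do not cover most members.

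Marginal zone-gated B cells, described below, had 11 lambda barcodes (5.47% of those called) in PEP-WT and 3 (10.7%, 2.27 to 28.2) in PEP-619WW. The median share of lambda UMIs in a follicular B cell was 23.8% in both libraries. Iglc2 stood at 1868 and 1716 CPM in members of PEP-WT and PEP-619WW, and at 33.3 and 46.5 CPM in barcodes with at least 2 Cd3e UMIs and no Cd79a, used here as T cells. Iglc3 stood at 1032 and 912 CPM in members and at 20.6 and 53.9 CPM in T cell barcodes. Igkc in T cell barcodes reached 4537 and 5071 CPM, with a median of 4 and 7 UMIs at median depths of 5341 and 7227 UMIs, against 9490 and 9063 CPM in members. Igkc UMIs were thus found in T cell barcodes of both libraries, while Iglc2 and Iglc3 were much lower there than in members. Iglc1 was closer, at 810.5 CPM in T cell barcodes against 939 CPM in members of PEP-WT, and at 230 against 818 CPM in PEP-619WW. Free RNA and barcodes that hold more than 1 cell cannot be told apart in these values. Iglc2 and Iglc3 are near-identical copies, and reads may have been split between them. The part of free RNA and of barcodes with more than 1 cell in the mixed calls was not tested.

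Heavy chain RNA was mostly Ighm and Ighd. Ighm stood at 3114 CPM in PEP-WT and 3836 CPM in PEP-619WW, a log2 ratio of 0.30 (0.27 to 0.33). The gate set the Ighd level, and the members held 2.20 Ighm UMIs per Ighd UMI in PEP-WT and 2.999 in PEP-619WW. Ighg2b stood at 63.3 and 133 CPM, a log2 ratio of 1.07 (0.87 to 1.27), and Ighg2c at 395 and 621 CPM, a ratio of 0.65 (0.57 to 0.74). T cell barcodes, which do not make antibody, held more Ighg2c than the members, at 1366 and 1544 CPM, and were deeper, as given above. The source of this RNA was not tested. For Ighg2b they held 247 CPM in PEP-WT, above the members, and 93.8 CPM in PEP-619WW, below them. In the other barcodes the ratios of Ighg2b and Ighg2c were 1.05 and 0.64.

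Variation among members was measured as the variance over the mean after thinning to 1000 UMIs. Its median across 2381 genes was 1.02 in both libraries, and at such low counts it lies near 1 whether or not cells vary. The genes with the largest values in both libraries included the hemoglobin genes, with 195 for Hbb-bs in PEP-WT and 167 in PEP-619WW, then the chemokine gene Ccl5, Ighg2c, Iglc1 and Igkc. Igkc reached 4.26 and 3.51. Beyond these came Malat1, mitochondrial transcripts, Apoe, Plac8, Cd74 and the interferon-induced genes Ifi27l2a, at 1.81 and 1.60, and Iigp1, at 1.57 and 1.64.

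Hemoglobin RNA was concentrated in few barcodes. In PEP-WT, 34 members with at least 100 hemoglobin UMIs held 93.9% of all 46303, and in PEP-619WW 1 barcode held 70.6% of 3886. A hemoglobin UMI was found in 55.1% of the members in PEP-WT but in 18.4% in PEP-619WW. Hbb-bs stood at 4848 and 659 CPM in members and at 8297 and 965 CPM in other barcodes. The gene family was therefore lower in PEP-619WW inside and outside the gate, with log2 ratios from -2.73 to -2.88 for Hba-a1, Hba-a2, Hbb-bs and Hbb-bt. Hba-a1 and Hba-a2 are near-identical copies, and their split is uncertain.

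PEP-619WW was compared with PEP-WT within the follicular B cells. Of 5064 genes with at least 200 UMIs, 126 (2.49%) were at least 1.5-fold higher in PEP-619WW and 85 (1.68%) at least 1.5-fold higher in PEP-WT. The median log2 ratio was 0.05. Interferon stimulated genes were lower in PEP-619WW. Of 63 tested genes of that list, 24 were at least 1.5-fold higher in PEP-WT, 0 were 1.5-fold higher in PEP-619WW, 55 had a ratio below 0 and the list's median was -0.44. The same list was lower in the other barcodes too, with a median of -0.50, so it was not particular to the follicular B cells.

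Isg15, an antiviral ubiquitin-like modifier, had the largest ratio, at 142 CPM in PEP-WT and 45.0 CPM in PEP-619WW (log2 -1.66, -1.91 to -1.41). It was seen in 19.9% of members in PEP-WT against 9.96% in PEP-619WW, and stood at 496 and 180 CPM in the other barcodes. Isg20, an RNA-degrading exonuclease, stood at 78.0 and 32.2 CPM (-1.28, -1.59 to -0.98). Ifi27l2a, an interferon-induced membrane protein, was present in most members, at 2051 and 1105 CPM (-0.89, -0.95 to -0.84). Irf7, the transcription factor that amplifies type I interferon, stood at 176 and 91.8 CPM (-0.94, -1.13 to -0.76). The intervals of these genes lay below 0 in both the members and the other barcodes.

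Further genes among these 24 were antiviral sensors, effectors and modifiers, while 39 of the 63 did not pass 1.5-fold. Rsad2, which encodes viperin, had a log2 ratio of -1.13, Herc6, the ligase that attaches Isg15 in mice, -1.10, and Ifi44 -1.10. The oligoadenylate synthetase genes Oas2 and Oas3 and their relatives Oasl1 and Oasl2 had ratios from -0.98 to -0.68. Slfn5 had -0.94, Usp18, which removes Isg15, -0.88, Rtp4 -0.88, Bst2, which encodes tetherin, -0.78, and Eif2ak2, which encodes the kinase PKR, -0.72. Ube2l6, the conjugating enzyme for Isg15 but not on the list, stood at 33.9 and 13.1 CPM (-1.37). Slfn5 has related genes in its family, and whether reads were shared between them was not tested. Of 15 tested genes in the list of interferon receptors and signaling, 1 was past 1.5-fold higher in PEP-619WW, beside 2.49% of all genes. This was the kinase gene Jak2 (0.61, 0.34 to 0.88). Another 1, Irf7, was past it higher in PEP-WT, beside 1.68% of all genes, and the list's median was -0.01. Stat2 (-0.01) and Irf9 (-0.07), which carry the type I interferon signal to the nucleus, had intervals that span 0. The receptor genes Ifnar1 and Ifnar2 had ratios of 0.25 (-0.02 to 0.52) and 0.14 (-0.15 to 0.42), so a difference in receptor RNA was not detectable at this depth.

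**Figure D2:**
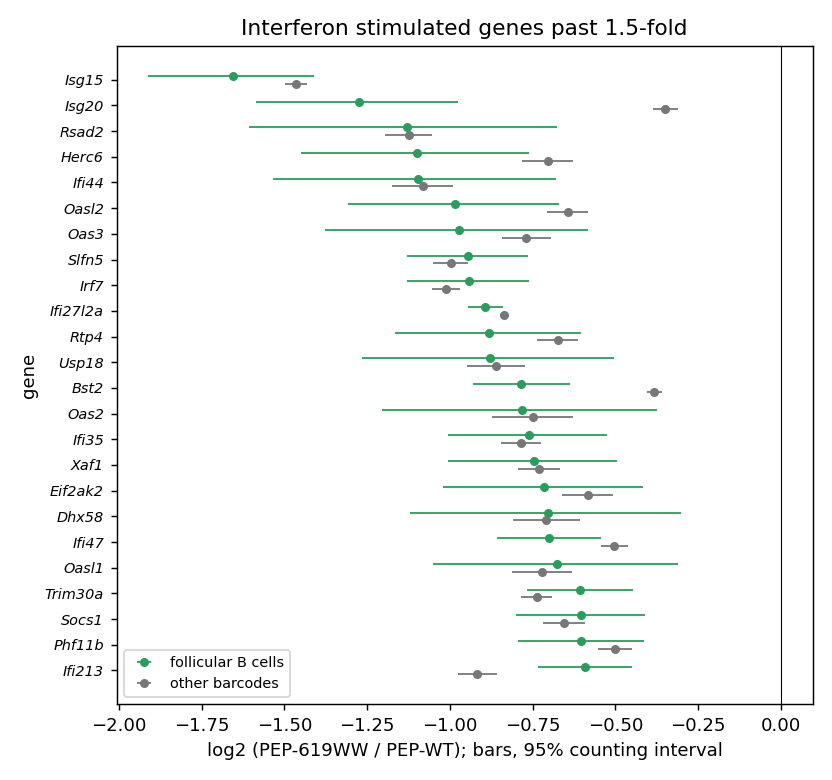
Log2 ratio of PEP-619WW over PEP-WT (horizontal axis) of the 24 interferon stimulated genes that were at least 1.5-fold higher in PEP-WT follicular B cells. Green points are the follicular B cells, grey points the other barcodes of the same libraries, and bars 95% counting intervals. All 24 genes lie left of 0 in both, with Isg15 lowest at -1.66 in the members.

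The interferon-inducible GTPases of the list were picked out after their values were seen, so they are a description with no test. Of 11 such genes 7 had ratios above 0, with a median of 0.02. Gbp2 stood at 145 CPM in PEP-WT and 146 CPM in PEP-619WW, Gbp7 at 199 and 202 CPM, and Iigp1 at 198 and 208 CPM. Gbp9 was the highest with a log2 ratio of 0.34, and Ifi47, 1 of the 24 genes past 1.5-fold, the lowest with -0.70. The Gbp genes are close paralogs and their reads may be shared.

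The interferon difference was spread over the members. After thinning to 1000 UMIs, the PEP-WT members held a median of 13 UMIs of the list (percentiles 10 and 90 at 7 and 23) and the PEP-619WW members 10 (5 and 17). At least 10 such UMIs were found in 76.3% (74.5 to 78.0) of the members in PEP-WT, and in 55.1% (52.1 to 58.2) in PEP-619WW. No member of either library had 0. Since the gate capped the Ifit genes, the comparison was repeated without that term, and the median log2 ratio was then -0.43 and Isg15 -1.66. Among members without a hemoglobin UMI the median was -0.39 and Isg15 had -1.27. Among members with 2000 to 4000 UMIs the median was -0.22, and Isg15 had -1.72. Of 53 genes of the list left to test there, 17 were at least 1.5-fold higher in PEP-WT. Over all genes tested in that window, 102 were at least 1.5-fold higher in PEP-WT and 173 in PEP-619WW.

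**Figure D3:**
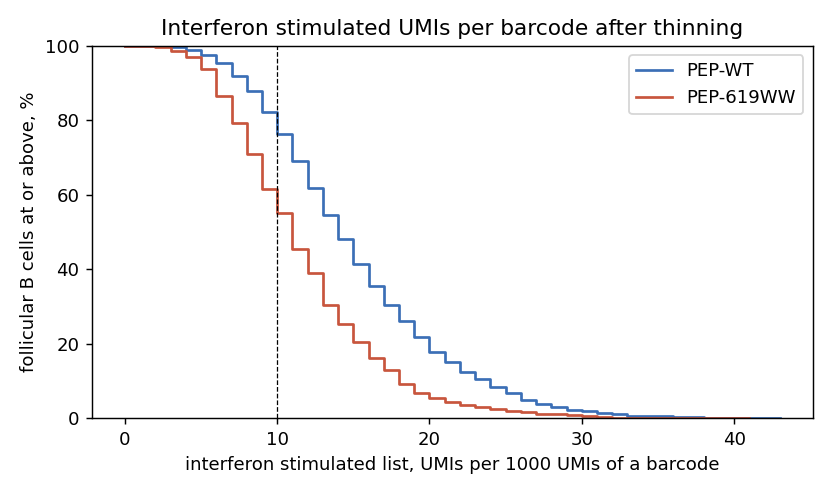
Share of follicular B cells in percent (vertical axis) with at least the number of interferon stimulated UMIs on the horizontal axis, per 1000 UMIs of a barcode after thinning. The PEP-WT curve (blue) lies right of the PEP-619WW curve (red) from 2 to 40 UMIs, and at the dashed line at 10 UMIs the shares are 76.3% and 55.1%.

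The promoters of some of these genes are shown because their letters can be set beside the common response. RefSeq windows (GRCm38.p6) were matched by symbol for 19 of the 24 genes, and the 250 bases before the start were searched for the core of the interferon-stimulated response element, which is GAAA, any 2 bases and GAAA again, or TTTC, any 2 bases and TTTC when read from the other strand. It was found for 9 of those 19 genes (47.4%) and for 13 of 29 other tested genes of the list (44.8%), against 3.46% of all 27025 genes with a window. A match is a description of letters and not a site of binding. The matches stand in capitals, which overlap where the repeat goes on, and each run reads 5′ to 3′ on the strand of its gene, ending at the base before the start.
Isg15, chr4:156200819-156201068, minus strand: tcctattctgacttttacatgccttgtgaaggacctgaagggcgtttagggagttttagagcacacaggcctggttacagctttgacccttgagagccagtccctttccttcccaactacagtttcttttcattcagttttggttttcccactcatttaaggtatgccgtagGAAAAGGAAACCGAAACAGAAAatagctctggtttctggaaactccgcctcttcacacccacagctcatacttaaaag
Rsad2, chr12:26456453-26456702, minus strand: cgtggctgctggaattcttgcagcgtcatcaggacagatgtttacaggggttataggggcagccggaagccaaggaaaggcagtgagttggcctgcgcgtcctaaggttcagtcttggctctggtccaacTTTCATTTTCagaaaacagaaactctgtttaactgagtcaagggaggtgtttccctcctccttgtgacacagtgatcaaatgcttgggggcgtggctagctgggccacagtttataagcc
Slfn5, chr11:82951852-82952101, plus strand: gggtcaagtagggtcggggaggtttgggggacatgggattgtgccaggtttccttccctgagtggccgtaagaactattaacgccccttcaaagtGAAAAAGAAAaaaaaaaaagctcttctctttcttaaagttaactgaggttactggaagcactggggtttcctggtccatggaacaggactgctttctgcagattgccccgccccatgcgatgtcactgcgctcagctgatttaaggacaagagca
Bst2, chr8:71537473-71537722, minus strand: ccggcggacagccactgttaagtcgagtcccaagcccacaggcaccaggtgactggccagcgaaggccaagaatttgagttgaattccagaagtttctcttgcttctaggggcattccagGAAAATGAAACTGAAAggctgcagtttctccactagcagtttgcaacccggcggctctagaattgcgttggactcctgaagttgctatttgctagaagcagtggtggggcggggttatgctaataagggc
In Isg15 the repeat began 78 bases before the start and held 3 overlapping matches, and in Bst2 it began 130 bases before the start with 2. Rsad2 had 1 match at 120 bases and Slfn5 1 at 155 bases. Irf7, Isg20, Herc6 and Ifi44 had windows and no match in them, with ratios in the same range.

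Of 16 tested genes in the list of B cell receptor inhibitors, 2 were at least 1.5-fold higher in PEP-619WW, beside 2.49% of all genes, and 1 was at least 1.5-fold higher in PEP-WT, beside 1.68%. The list's median was 0.11, against 0.05 over all genes, and 14 ratios lay above 0. Btla, an inhibitory receptor gene, stood at 231 CPM in PEP-WT and 405 CPM in PEP-619WW (log2 0.81, 0.70 to 0.92) and was seen in 41.8% and 65.8% of members. Ptpn22 itself stood at 76.6 and 130 CPM (0.77, 0.57 to 0.96), while the other barcodes had 76.7 and 92.3 CPM (0.27). Its log2 ratio of members over marginal zone-gated B cells was 0.28 in PEP-WT and 0.28 in PEP-619WW. The rise was thus similar in those cells and not particular to the follicular B cells. Inpp5d, which encodes the lipid phosphatase SHIP, had a ratio of 0.51, and Fcgr2b, the inhibitory IgG receptor, 0.36, neither past 1.5-fold. Ptpn6, which encodes the phosphatase SHP-1, went the other way, at 294 and 192 CPM (-0.62, -0.75 to -0.49). The list of the receptor complex and its kinases had 0 of 24 past 1.5-fold, with Syk at 0.37, Btk at 0.35 and Cd79b at 0.00.

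Of 18 tested homing and adhesion genes, 1 was at least 1.5-fold higher in PEP-619WW, beside 2.49% of all genes, 1 was at least 1.5-fold higher in PEP-WT, beside 1.68%, and 16 were neither. Cxcr4, the receptor for the stromal chemokine CXCL12, stood at 182 and 317 CPM (0.80, 0.68 to 0.92). S1pr1, which guides egress from lymphoid tissue, had 0.47, short of 1.5-fold. Ccr6 was lower in PEP-619WW, at 42.4 and 27.6 CPM (-0.62), and Cxcr5, which draws B cells into follicles, had -0.29, also short of it. Fcer2a stood at 110 and 60.7 CPM (-0.86, -1.09 to -0.64) and was the 1 marker of the follicular list past 1.5-fold. Cd200, an inhibitory ligand, stood at 61.0 and 118 CPM (0.95), Pde2a, a cyclic nucleotide phosphodiesterase, at 51.1 and 119 CPM (1.22, 1.00 to 1.44), Abca1, a cholesterol exporter, at 74.2 and 136 CPM (0.87), and Ppp1r21 at 61.2 and 120 CPM (0.97). Fkbp5, induced by glucocorticoids, had 1.03. Leaving out the barcode with most UMIs of the gene in each library left Pde2a at 1.22, Cd200 at 0.94, Ppp1r21 at 0.97, Abca1 at 0.87 and Btla at 0.81.

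Identity genes are given with their intervals, since few of all genes passed 1.5-fold, 2.49% higher in PEP-619WW and 1.68% higher in PEP-WT, and a count of 0 in a short list is near that. Ebf1 had a log2 ratio of -0.01 (-0.06 to 0.04) and Cd79b 0.00 (-0.04 to 0.05). No gene of the 23 tested B cell transcription factors passed 1.5-fold, and their ratios ran from -0.06 to 0.34. None of the 14 tested survival receptor and Bcl2 family genes passed it. Of 8 tested genes of the Toll-like receptor list none passed it, with Tlr7 at -0.04 (-0.34 to 0.25).

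MHC class II presentation genes were mostly a little lower in PEP-619WW. Of 16 genes of that list 13 had ratios below 0, beside 2181 of all 5064 genes, with a median of -0.18. The sum of the list was 22701 CPM in PEP-WT and 19203 CPM in PEP-619WW. Cd74, the invariant chain, stood at 8947 and 7409 CPM (-0.27), H2-Ab1 at 3167 and 2443 CPM (-0.37), and H2-Aa at 3465 and 3165 CPM (-0.13). Past 1.5-fold, beside 1.68% of all genes, were Cd83, an activation marker that also stabilises MHC class II, at 103 and 60.7 CPM (-0.76), and Ifi30, a lysosomal thiol reductase, at 578 and 367 CPM (-0.65). In the other barcodes the median of the MHC class II list was -0.37. Of 18 tested genes of the MHC class I and immunoproteasome list 11 lay below 0 in the members, with a median of -0.05.

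Stress and early response genes were mixed. All 10 tested genes of the heat shock list had ratios below 0, with a median of -0.37 and 2 past 1.5-fold, beside 1.68% of all genes, Hspa5 (-0.61) and Dnaja1 (-0.60), and the list's median in the other barcodes was -0.43. Of 21 immediate early and activation genes 11 lay above 0 and 10 below. Of these, 1 was past 1.5-fold higher in PEP-619WW, beside 2.49% of all genes, and 2 higher in PEP-WT, beside 1.68%. The gene higher in PEP-619WW was the chemokine gene Ccl4 (1.84), with 116 of its 168 UMIs there in 1 barcode. Of the 2 higher in PEP-WT, 1 was Cd83, already counted above in the MHC class II list. Fosb was past 1.5-fold lower in PEP-619WW (-0.76) and Jun had -0.56, short of it, while the intervals of Nr4a1 (0.39, -0.01 to 0.80) and Egr1 (0.22, -0.07 to 0.51), which follow antigen receptor signals, span 0. In the list for oxidative phosphorylation 58 of 70 genes lay below 0, with a median of -0.16 and 0 past 1.5-fold. Of 13 transcripts of the mitochondrial genome 11 lay above 0. Among them 1, mt-Nd6 (0.60, 0.25 to 0.95), was past 1.5-fold higher in PEP-619WW, beside 2.49% of all genes. Of all 5064 genes 2883 lay above 0.

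Some of the largest ratios rested on single barcodes or belonged to genes known from other lineages. In PEP-619WW 1 barcode held 569 of 570 UMIs of Prss34 and 1 held 417 of 425 of Mcpt8, both protease genes of basophils. Without the barcode with most UMIs of the gene in each library, the ratio of Prss34 turned from 7.89 to -0.84. Ccl4 went from 1.84 to 0.74 in the same way, and Cst3 from 0.94 to 0.45. The neutrophil genes S100a8 and S100a9 had ratios of 1.29 and 1.25 in the members and 0.82 and 0.67 in the other barcodes. T cell barcodes held more S100a8 than the members, at 823 and 590 CPM, and were not chosen for 0 Lyz2 UMIs as the members were. Their level was lower in PEP-619WW while that of the members was higher, and the source of this RNA was not tested. Of 12 neutrophil markers these 2 had at least 200 UMIs in the members, and the list summed to 138 CPM in PEP-WT and 351 CPM in PEP-619WW members, with Ly6g at 0 in PEP-619WW. Slpi (1.15) and Lgals3 (1.20) are also made by myeloid cells. The part of neutrophil RNA in other ratios was not tested.

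**Figure D4:**
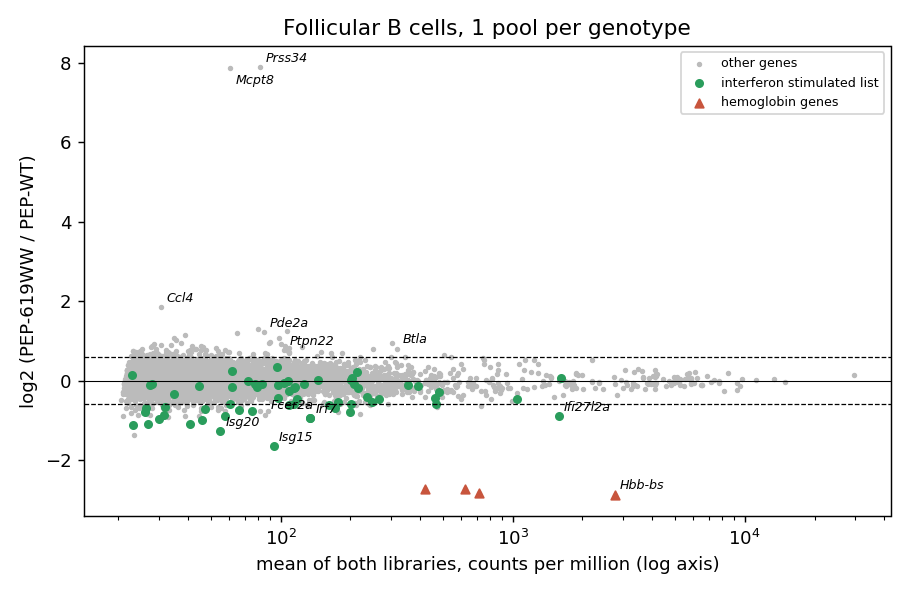
Log2 ratio of PEP-619WW over PEP-WT in follicular B cells (vertical axis) against the mean of both libraries in CPM (horizontal log axis) for the 5064 genes tested. Green points are the interferon stimulated list, red triangles the hemoglobin genes, and dashed lines mark 1.5-fold. Most green points lie below 0 with Isg15 at -1.66, while Prss34 and Mcpt8 at the top rest on 1 barcode each.

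Marginal zone-gated B cells passed every other term of the gate. They held at least 2 UMIs of Cr2, Dtx1 and Il9r together and numbered 520 in PEP-WT and 114 in PEP-619WW. They were 18.5% (17.08 to 19.98) of the 2 gates together in PEP-WT and 9.60% (7.98 to 11.4) in PEP-619WW, a difference of -8.90 points (-11.0 to -6.62). After thinning to 1000 UMIs they were 50 of 1368 barcodes, 3.65% (2.72 to 4.79), and 7 of 553, 1.27% (0.51 to 2.59), a difference of -2.39 points (-3.69 to -0.80). Both shares were lower at that depth, so the differences in points do not share a base. They were deeper than the follicular B cells, with medians of 3249.5 and 3986 UMIs. Over all barcodes Cr2, a gene of that term, stood at 67.6 CPM in PEP-WT and 16.4 CPM in PEP-619WW. Within the follicular members, where the gate limits it, Cr2 stood at 65.1 and 31.1 CPM. Whether there were fewer such cells or less Cr2 RNA per cell was not tested.

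Of 5801 genes tested, 66 (1.14%) were at least 1.5-fold higher in follicular than in marginal zone-gated cells of both libraries, and 16 (0.276%) at least 1.5-fold lower. These calls rest on the ratios alone. The intervals of both libraries lay off 0 for 39 of the 66 higher genes and for 9 of the 16 lower genes. Klf2, which restrains the marginal zone fate, stood at 803 against 388 CPM in PEP-WT and 778 against 497 CPM in PEP-619WW. Ssbp2 had 1.68 and 1.36, Cd200 0.95 and 1.05, and the interferon-inducible GTPase gene Iigp1 0.69 and 0.80. Higher too were S100a6, Car2, Tmem71, Ier2, Cyp4f18 and Mylip, with ratios from 0.62 to 1.73, and the 4 hemoglobin genes, whose UMIs in members sat in few barcodes, as given above. Car2 is on the erythroid list with them, and 5 of 6 tested genes of that list were higher, beside 1.14% of all genes. Ccl4 had 0 UMIs in the marginal zone-gated barcodes of PEP-619WW, and no ratio is given for it there. Klf2 and Cd200 were thus higher in the follicular cells of both libraries.

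Lower in follicular cells was Ccr6, at 42.4 against 83.2 CPM in PEP-WT and 27.6 against 71.0 CPM in PEP-619WW. Tm6sf1, a marginal zone marker, stood at 50.9 against 114 CPM and 41.3 against 89.3 CPM. Marcks, a membrane-bound actin regulator on the marginal zone list, had -1.56 and -0.92, Pik3r4, a subunit of a lipid kinase complex on the same list, -0.90 and -0.73, and Ffar2, a receptor for short-chain fatty acids, -1.02 and -1.13. Of 6 tested marginal zone markers outside the gate 3 were lower past 1.5-fold in both libraries, beside 0.276% of all genes. Among the others, Cd1d1 had -0.88 in PEP-WT and -0.34 (-1.02 to 0.40) in PEP-619WW, where only 114 barcodes were compared. Ebf1, Pax5, Cd22 and Bank1 differed by less than 1.5-fold in both libraries.

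**Figure D5:**
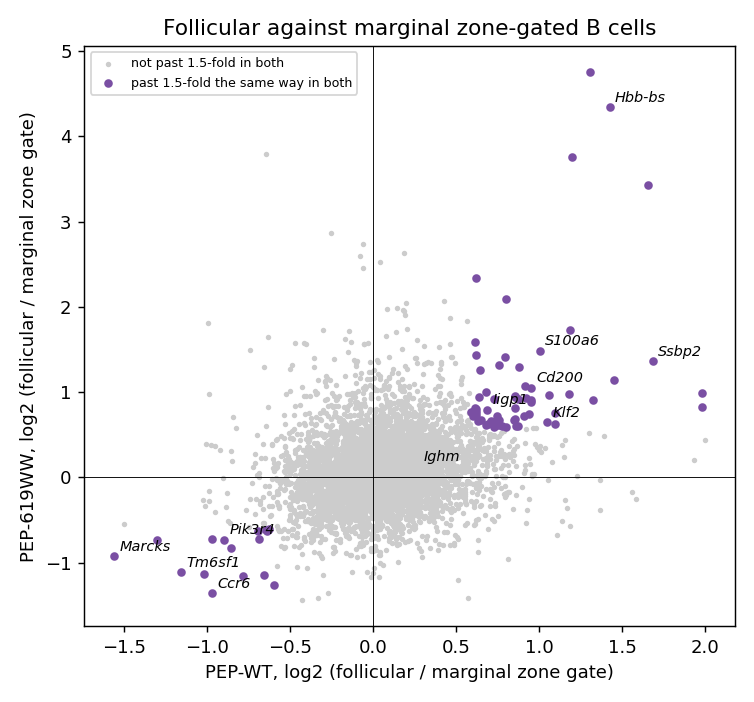
Log2 ratio of follicular over marginal zone-gated B cells in PEP-WT (horizontal axis) and PEP-619WW (vertical axis), 1 point per gene with a UMI in all 4 groups. Purple points were past 1.5-fold the same way in both libraries. Klf2, Ssbp2 and Cd200 sit at the upper right and Ccr6, Tm6sf1 and Marcks at the lower left.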

How the data were processed

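The files hold whole-number UMI counts per gene and barcode, as deposited by the authors, with no normalization. Libraries were 10x 3' v3.1, and the study's methods name the mm10 genome and a later version of Cell Ranger than the 6.0.0 in the submitters' processing notes. Each sample had 2 deposited runs. The barcode numbers in the study's methods are those of the run used here only as an alternative; the sources do not say what else separates the runs. Symbols were found for 32158 of 32285 gene IDs.

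Counts of the members were summed per library and divided by total UMIs. Log2 ratios carry exact conditional binomial intervals, shares Clopper-Pearson intervals and differences of shares Newcombe intervals, all at 95% and for counting error only. Genes needed at least 200 UMIs, the 12 gate genes were left out, and no pseudocount was used. Named genes are members of fixed lists or the 15 per comparison and direction whose interval bound lay furthest from no change, with predicted genes left out; Ube2l6 and other genes outside the lists come from the second part. Some genes of the lists are counted with them and are not reported here by name. The GTPase group was chosen after its values were seen. No doublet caller was run; leaving out the deepest 5% of barcodes, and members with a UMI of another lineage's gene, stand in for it among the alternatives. The scripts were tested on simulated data with Python 3.11.15, NumPy 2.4.6 and SciPy 1.17.1. The members and lists were chosen with earlier results of these data known.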

Additional observations from a re-analysis of the deposited data

Results flagged for a closer look

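The other deposited run, whose barcode numbers are those in the study's methods, was not used for the comparisons. Under the same gate it held 264 follicular B cells among 11029 PEP-619WW barcodes, 2.39% (2.12 to 2.70), with 1430 CPM of Ebf1 and 692 CPM of Fcmr. In PEP-WT it held 0 of 9539 barcodes, with a Clopper-Pearson upper limit of 0.0387%. Cd79a was found in 795 and 10 barcodes of the 2 libraries in that run.

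Among the named genes and the genes of the lists, some lay on opposite sides of 0 in the 2 libraries, with both counting intervals off 0. Whether the libraries differ was not tested, since each genotype is 1 pool. Against the other barcodes, the log2 ratio in PEP-WT and PEP-619WW was 0.14 and -0.15 for Ctss, a lysosomal protease gene, 0.22 and -0.19 for Lgmn, another lysosomal protease gene, and 0.13 and -0.16 for Jun. The ribosomal protein gene Rpl23a had -0.059 and 0.086.

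Against the marginal zone-gated B cells, the log2 ratios were -0.65 and 3.797 for Gzma, a cytotoxic granule gene, and -0.995 and 1.81 for Car1, an erythroid carbonic anhydrase gene. Both are genes of other lineages, and the PEP-619WW marginal zone gate held 114 barcodes. Whether single barcodes carried these ratios was not tested. For Cd74 they were 0.056 and -0.078. The interferon-induced genes Ifi27l2a (0.12 and -0.22) and Eif2ak2 (0.39 and -0.86) were higher in follicular B cells of PEP-WT and lower in those of PEP-619WW. The antibody genes Ighg2c (0.54 and -0.18) and Iglc3 (0.15 and -0.22) showed the same signs.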

How the results depend on the processing

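The interferon stimulated list had a median log2 ratio from -0.46 to -0.22 over 15 alternatives, all below 0. Of 11 planned and 6 added alternatives, the added ones were chosen after seeing the data. The cause of the changes below was not tested. The share difference of -2.93 points became -4.31 with 1 Ighd UMI, -1.14 with 3, -4.48 without members holding a UMI of Jchain, Cd3d, Trac, S100a8, Csf1r or C1qa, and turned to 2.39 in the other run. The genes higher in PEP-619WW (126) and in PEP-WT (85) numbered 27 and 42 after thinning to 1000 UMIs, 510 and 241 with a minimum of 50 UMIs, 2297 and 1005 with no minimum, and 11 and 10 at 2-fold. Thinning and the minimum of UMIs also changed which genes were tested. Counts from those settings, here and below, do not share a base with the main ones. In the interferon stimulated list 63 genes were tested, against 36 after thinning and 67 with a minimum of 50. Interferon stimulated genes past 1.5-fold numbered 10 of 36 tested after thinning and 15 of 53 without members holding those lineage UMIs. Over all genes tested in these settings, 42 and 100 were past 1.5-fold higher in PEP-WT. These 2 are counts and not shares, since the number of all genes tested in each setting is not given here. Against the other barcodes, 685 higher genes became 108 after thinning, 255 by the mean over barcodes and 1198 with no minimum, and 1932 lower genes became 713 after thinning. Against the marginal zone gate, 66 higher genes became 274 with a minimum of 50, 291 with none and 43 at 2000 to 4000 UMIs. They became 199 when the Lyz2 and Cd3e terms were dropped for the follicular B cells only. The marginal zone gate kept both terms there, so the 2 groups were not gated alike. The 16 lower genes became 28 after thinning, 28 with 1 Ighd UMI, 32 without the deepest 5%, 10 without the lineage UMIs, 83 with a minimum of 50, 311 with none and 9 at 2000 to 4000 UMIs. Prss34 turned to -0.85 without the deepest 5% and -0.84 without its top barcode, Ccl4 to -0.90 after thinning and -0.46 without the Lyz2 and Cd3e terms, and Cst3 to -0.034 after thinning. No paired analysis was possible because each genotype is 1 pool. The other run gave shares only, since its PEP-WT library held no member.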
